A study of Mus musculus with 28 samples.

Results

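The oxidative phosphorylation genes described here were the rows of an E14.5 cortex table and an adult prefrontal cortex (PFC) table whose symbol begins with Nduf, Uqcr, Cox4 to Cox8 or Atp5, is Sdha, Sdhb, Sdhc or Sdhd, or begins with mt-Nd, mt-Co, mt-Cytb or mt-Atp. There were 104 such genes among 14879 genes listed in either table. The E14.5 table held 102 of them among 13846 genes, 89 encoded in the nucleus and 13 in mitochondrial DNA. The PFC table held 104 among 14104 genes, 91 nuclear and 13 mitochondrial, the added pair being Cox6a2 and Cox7b2. By prefix the set also took in 8 Ndufaf genes, which encode assembly factors of complex I and not subunits. A gene was tested where it reached 1 CPM (a gene's share of its library, scaled to a fixed total) in at least 4 E14.5 or 6 PFC libraries. In E14.5 cortex 100 members passed, 89 nuclear and 11 mitochondrial, with mt-Nd4l and mt-Atp8 falling short, and in PFC 103 passed, all except Cox7b2.

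Mitochondria make most of a neuron's ATP by passing electrons from NADH and succinate along complexes I to IV to oxygen, while protons are pumped across the inner membrane and flow back through complex V, the ATP synthase. Complexes I, III, IV and V are mosaics: mitochondrial DNA encodes a few membrane subunits of each, read from long shared transcripts, and nuclear genes on many chromosomes encode all the others. Complex II, which is also the succinate dehydrogenase of the tricarboxylic acid (TCA) cycle, is encoded by nuclear genes alone. Neurons come to depend on respiration as they mature, and a working complex needs products of both genomes.

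The libraries were bulk RNA of mouse tissue from a line in which Myt1l, a gene for a neuronal transcription factor with zinc fingers, was knocked out. The study set out to learn how chromatin and transcripts change without it. E14.5 cortex (the number being the embryonic day) came as 6 wild-type (WT), 6 heterozygous (Het) and 4 homozygous (Hom) libraries, of which 5, 3 and 3 were labelled female. Adult PFC came as 6 WT and 6 Het libraries, 3 of each labelled female, with no adult age given in the labels used here. Each library carries an animal identifier of its own, so replicates were treated as separate animals. The form of the knockout allele, the strain and any pooling are not given in the labels. In bulk tissue, fewer cells of a type and less RNA per cell cannot be told apart.

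Some facts of the whole series bear on every value below. Myt1l lay between 18.1 and 23.3 CPM in Hom, 30.6 and 59.5 in Het and 45.9 and 66.6 in WT embryos, so Het and WT overlapped, and its log2 change was -1.43 (SE 0.16) in Hom and -0.39 in Het (limma adjusted p = 0.000112 and 0.125). In PFC it lay between 104.8 and 121 CPM in Het and 146 and 168 in WT (-0.47, adjusted p = 0.000139). The libraries labelled Het F10 and Het M11 did not match their labelled sex by Y-linked genes, so counts are also given without them. Totals recovered from the tables were 27827467 to 30811856 for E14.5 and 19601294 to 21275162 for PFC libraries. They are scaled and adjusted values, so true depth is unknown. The main tests make no allowance for the variation removed by that adjustment, so the p-values below may be too small. The 2 tables were normalised separately, and levels in E14.5 cortex and PFC are set side by side with no test. All 5 neuronal markers were present in both tissues, with means from 12.7 CPM (Rbfox3) to 4441 CPM (Tubb3) in E14.5 cortex and from 156 CPM (Rbfox3) to 7034 CPM (Snap25) in PFC.

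Promoters of nuclear members carry well-known motifs of the factors NRF1, an activator of respiratory chain genes, GABPA of the ETS family, also called NRF2, and YY1. For 74 of the 91 nuclear members RefSeq gave a window of 250 bases before to 50 after the gene start (GRCm38.p6). The NRF1 motif, searched on both strands, was found in 18 of these windows (24.3%) against 4.78% of all 27025 promoters. YY1's AAGATGGCG was in 7 (9.46%) against 1.49%, and the ETS motif CCGGAAGT in 5 (6.76%) against 4%. The windows were not matched for GC content, whose median was 58.5% in members and 52.7% in all promoters. Its part in these shares was not tested. A match describes letters in this window and no site or cause. Shown are windows of 4 members on which the embryonic results turn, first those lower in the mutants and then those higher, with motif matches in capitals. They lie on the minus strand at chr13:74350191-74350490 (Sdha), chr6:126849095-126849394 (Ndufa9), chr6:24527477-24527776 (Ndufa5) and chr16:37654319-37654618 (Ndufb4), and are printed 5′ to 3′ along the gene.
Sdha: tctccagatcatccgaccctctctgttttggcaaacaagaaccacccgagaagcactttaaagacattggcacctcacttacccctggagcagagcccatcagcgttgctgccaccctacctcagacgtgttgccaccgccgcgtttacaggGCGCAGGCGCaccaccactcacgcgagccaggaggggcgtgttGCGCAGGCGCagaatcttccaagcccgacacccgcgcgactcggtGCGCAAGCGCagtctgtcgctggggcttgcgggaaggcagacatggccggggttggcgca
Ndufa9: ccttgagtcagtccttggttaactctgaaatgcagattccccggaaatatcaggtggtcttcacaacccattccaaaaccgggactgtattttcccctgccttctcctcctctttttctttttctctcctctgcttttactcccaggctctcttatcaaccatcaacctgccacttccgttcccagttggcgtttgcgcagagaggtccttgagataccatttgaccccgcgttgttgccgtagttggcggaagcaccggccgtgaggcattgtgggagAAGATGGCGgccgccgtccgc
Ndufa5: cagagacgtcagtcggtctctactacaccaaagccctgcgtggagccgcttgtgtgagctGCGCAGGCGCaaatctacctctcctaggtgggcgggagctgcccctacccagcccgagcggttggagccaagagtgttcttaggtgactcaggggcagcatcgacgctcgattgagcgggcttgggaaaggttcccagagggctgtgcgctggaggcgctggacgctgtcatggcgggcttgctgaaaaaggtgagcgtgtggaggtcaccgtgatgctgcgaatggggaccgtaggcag
Ndufb4: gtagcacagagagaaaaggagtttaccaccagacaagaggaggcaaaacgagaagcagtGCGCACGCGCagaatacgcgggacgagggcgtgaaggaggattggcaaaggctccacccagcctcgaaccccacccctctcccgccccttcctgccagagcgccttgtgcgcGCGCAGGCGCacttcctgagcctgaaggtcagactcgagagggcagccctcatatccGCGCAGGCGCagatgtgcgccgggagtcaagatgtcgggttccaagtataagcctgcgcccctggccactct
Sdha and Ndufb4 each held 3 matches of the NRF1 motif and Ndufa5 held 1, so the motif was present in windows of members that moved in opposite directions. Ndufa9 held a single YY1 match after the start.

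The balance of mitochondrial and nuclear members, taken as a ratio within each library, is given side by side for the tissues. In E14.5 WT cortex the 89 nuclear members summed to 30349 CPM ± 1791 (SD, n = 6) and the 13 mitochondrial members to 7629 CPM ± 1111, a ratio of 0.251 ± 0.026. In WT PFC the nuclear sum was 38216 CPM ± 2861 and the mitochondrial sum 50168 CPM ± 5780, a ratio of 1.32 ± 0.176 (SD, n = 6). The mitochondrial genes thus made up 0.616 to 0.878% of listed values in embryonic WT libraries and 4.15 to 5.61% in adult ones.

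Within a tissue the sums of the genotypes overlapped. In E14.5 cortex the mitochondrial sum ran from 6097 to 9252 CPM in WT, with a median of 7648, and from 6795 to 11381 CPM in Het, with a median of 9239. The 4 Hom libraries stood at 11226 (F01), 9856 (F04), 7006 (F09) and 7283 CPM (M02). F01 and F04 were thus above every WT library and the other pair inside the WT range. The nuclear sum ran from 28236 to 33143 CPM in WT, from 30267 to 35045 in Het and from 28830 to 33150 in Hom. Of the complexes, nuclear complex II subunits summed to 2142 CPM ± 105 in WT, 1971 ± 135 in Het (SD, n = 6 each) and 1854 ± 121 in Hom (SD, n = 4), whereas nuclear complex IV members summed to 6114 ± 459, 6855 ± 569 and 6438 ± 451. In PFC the mitochondrial sum was 40390 to 54984 CPM in WT and 41855 to 62587 in Het.

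**Figure D1:**
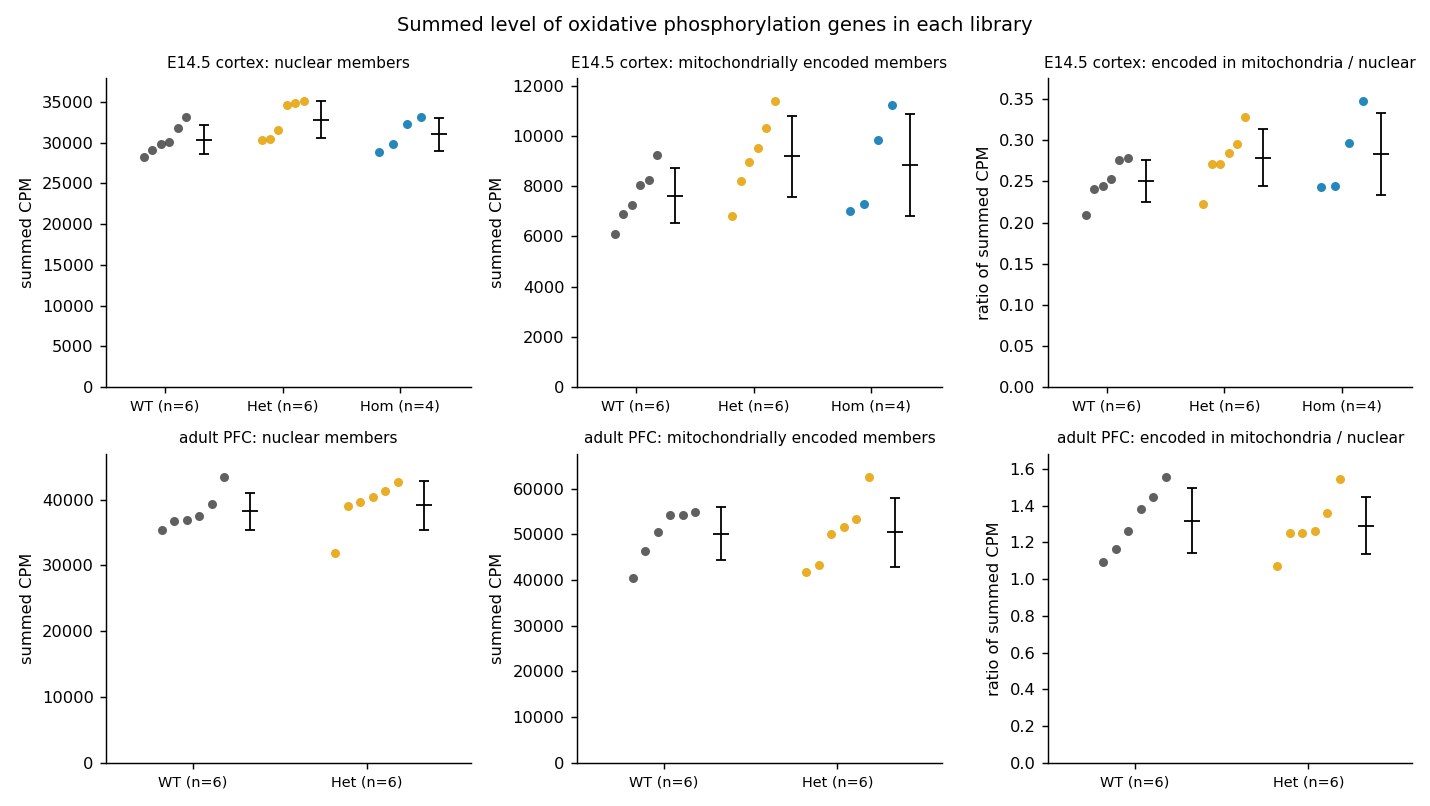
Summed CPM of nuclear members (left), of mitochondrially encoded members (middle) and the ratio of the sums (right) in each E14.5 (top) and PFC (bottom) library; points are libraries, bars the mean ± SD. The ratio lay between 0.209 and 0.347 in all E14.5 libraries and between 1.07 and 1.56 in all PFC libraries, and genotypes overlapped in every panel.

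Levels of the 13 mitochondrial mRNAs were uneven. Compared per kilobase, mt-Cytb, the only mitochondrial subunit of complex III, averaged 2256 CPM per kb in E14.5 WT cortex, mt-Nd1 of complex I 1509 and mt-Co1, the catalytic subunit of complex IV, 1292. The other core subunits of complex I followed, mt-Nd2 with 374, mt-Nd4 with 318, mt-Nd3 with 298, mt-Nd5 with 286 and mt-Nd6, the product of the opposite strand, with 156 CPM per kb. Far below lay mt-Co3 (52.4), mt-Atp6 of complex V (25.8), mt-Co2 (23.0), mt-Atp8 (1.92) and mt-Nd4l (1.05). In WT PFC the same 5 genes were lowest, between 7.97 CPM per kb for mt-Nd4l and 255 for mt-Co3, while mt-Cytb averaged 11171. Together mt-Co2, mt-Co3, mt-Atp6 and mt-Nd3 made up 2.34% of the mitochondrial sum in E14.5 WT and 1.51% in PFC WT.

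For several of these genes, sequence recurs elsewhere in the annotation. Of the 50-base stretches of each member's longest transcript, 100% of mt-Co2, 99.9% of mt-Co3, 99.5% of mt-Atp6, 98.8% of mt-Nd4l and 98.0% of mt-Nd3 also occurred in a transcript of another gene, in each case an unprocessed pseudogene such as Gm28437 for mt-Co3 and Gm28438 for mt-Nd3. For mt-Nd4 the share was 62.2% and for mt-Co1 51.1%, and for mt-Nd1, mt-Nd6, mt-Cytb and mt-Atp8 it was 0. None of the pseudogenes nearest to those 5 genes is a row of either table. How reads matching several places were counted is not stated in any source used here, so levels and changes of these 5 genes are uncertain. Only mt-Atp8, which overlaps mt-Atp6 by 43 bases, was low with no such copy. No nuclear member reached 90%, the highest being Ndufaf2 with 80.9%, which overlaps a long noncoding RNA, and 74 of the 104 members were under 10%.

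**Figure D2:**
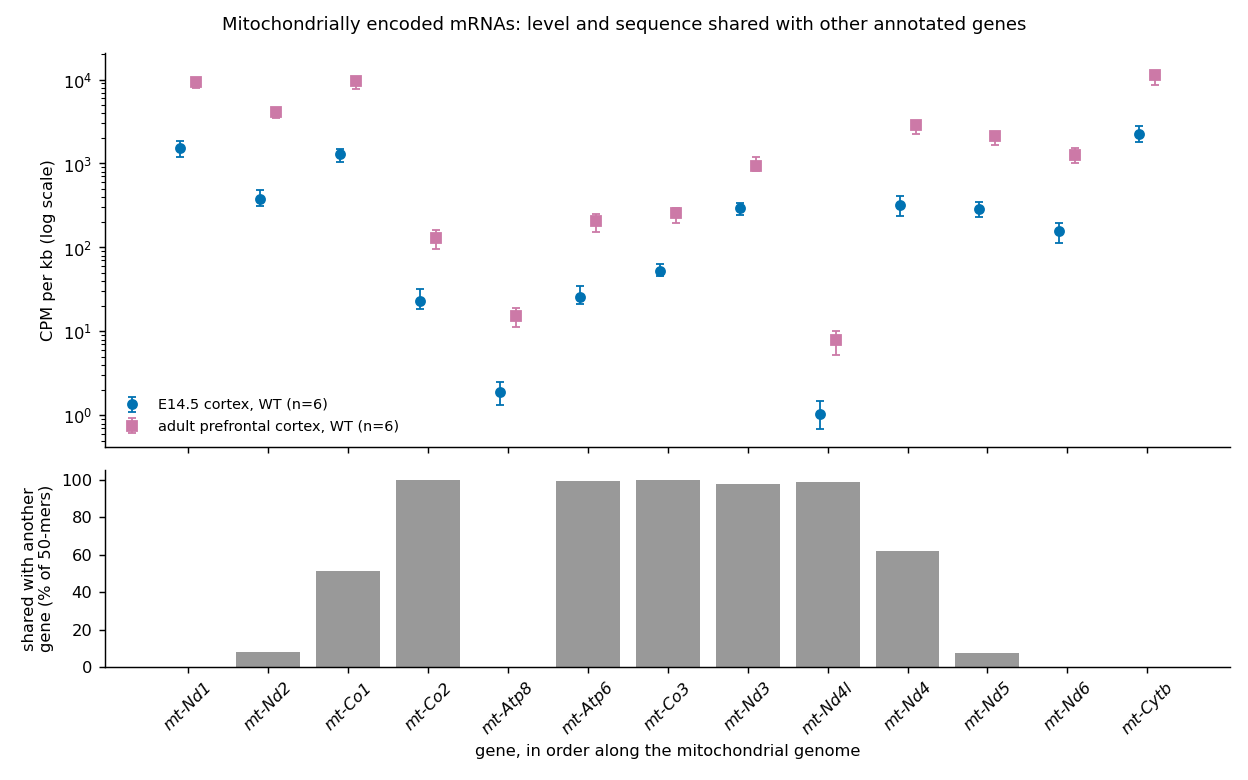
Top, CPM per kb (log scale) of the 13 mitochondrially encoded mRNAs in WT libraries, with points for means and bars from the lowest to the highest of 6 libraries; bottom, the percentage of each transcript's 50-base stretches found in another annotated gene. mt-Co2, mt-Atp6, mt-Co3 and mt-Nd4l combine low levels with shares of at least 98.8%, and mt-Cytb, with a share of 0, has the highest level.

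Homozygous against WT embryos asks what changes where both copies of Myt1l carry the knockout. A small group of subunits rose, among them the small ATP synthase subunits Atp5mpl and Atp5md, the complex I subunit Ndufa5 and the mitochondrial genes mt-Nd3 and mt-Co3, whose sequence has copies elsewhere, by 0.29 to 0.55 on the log2 scale. In complex II, Sdha and Sdhd fell, and all 4 subunits had negative values. In all 10 of 100 members were called at an adjusted p under 0.05 (limma with Benjamini-Hochberg adjustment over all 12429 genes), 7 higher and 3 lower. Of all tested genes 7.6% were called, 3.23% higher and 4.37% lower, so the members' 10% lies near the background. The median log2 change was 0.07 over the 89 nuclear members, 0.24 over the 11 mitochondrial ones and 0.02 over all tested genes. The nuclear median was 0.05 without Hom F01 and 0.04 without WT F04, and the mitochondrial one 0.41 without Hom F09.

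Heterozygous against WT embryos asks the same where a single copy carries it. Nuclear subunits of complexes I, III, IV and V and 4 mitochondrial genes rose, and Sdha fell. Here 24 of 100 members were called, 23 higher and 1 lower, against 5.83% of all tested genes (2.84% higher and 2.98% lower). The higher ones were 4 mitochondrial genes (mt-Nd3, mt-Co3, mt-Nd6 and mt-Co2), 8 accessory subunits of complex I and its assembly factor Ndufaf2, 1 subunit of complex III, 4 of complex IV and 5 of complex V. The sole lower call was Sdha. The median log2 change was 0.14 over nuclear and 0.46 over mitochondrial members, against 0.03 over all tested genes. Het and Hom share the WT libraries, so their values are not independent. Set directly against each other, Hom and Het gave no call: 0 of 100 members passed, against 0.00805% of all genes (0% higher, 0.00805% lower). The voom alternative also called 0. An unadjusted p under 0.05 was found for 636 of all 12429 tested genes and for 4 of the 100 members. They were Uqcr10 (-0.18, SE 0.07), Sdhd (-0.15, SE 0.07), Ndufaf7 (-0.15, SE 0.07) and Ndufa2 (-0.14, SE 0.07), each with an adjusted p of 0.957. Most values lay below 0 all the same, 81 of 89 nuclear (median -0.10) and 11 of 11 mitochondrial (median -0.11), against a median of -0.01 over all tested genes. Without Hom F09 these medians were -0.06 and 0.01, and the mitochondrial one was -0.21 without Hom F01, -0.19 without Het F10, -0.07 without Het M01 and -0.05 without Het F07.

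These counts moved with single libraries and with the handling of GC content. For Hom, leaving out Hom F01, Hom F04 or Hom M02 left 3, 2 and 3 members called, and leaving out WT F04, WT F12, WT F06 or Hom F09 left 3, 4, 6 and 6. In the same order these fits called 4.2, 3.93, 4.76, 3.98, 5.46, 5.7 and 4.03% of all tested genes. For Het, the count was 7 without Het F07, 9 without Het F02, 11 without Het M01, 10 without WT F04, 13 without WT F12 and 15 without WT F06. The share of all tested genes fell too, to 1.05, 3.25, 3.48, 2.44, 3.77 and 3.54%. Without Het F10 and Het M11, whose sex labels did not match, the count was 41 for Het and 15 for Hom, against 8.74 and 9.32% of all tested genes. Centring each library on its median gave 2 higher and 7 lower in Hom and 10 higher and 1 lower in Het, and counting over nuclear genes alone gave 19 higher and 3 lower in Hom and 32 higher and 1 lower in Het. Over all tested genes, centring gave 294 higher and 746 lower in Hom and 213 and 509 in Het. Counting over nuclear genes gave 707 higher and 377 lower of all tested genes in Hom and 423 and 392 in Het.

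A property of the libraries differed between WT and mutant embryos. In each library, the deviation of every tested gene from its mean over libraries was correlated with transcript GC content. This Pearson's r across genes, which are no independent replicates, ran from 0.045 to 0.119 in the 6 WT embryos, from -0.132 to 0.032 in Het and from -0.084 to -0.0035 in Hom, so every WT library lay above every mutant library. Over the 89 nuclear members the log2 change fell with GC content in Hom (r = -0.35) and in Het (r = -0.35), as it did over all 12423 tested genes with a GC value (r = -0.16 and -0.18), and mitochondrial transcripts lie at the AT-rich end, between 33.05 and 39.9% among those tested. After a correction of each library for GC content and length, the mitochondrial medians were 0.02 in Hom and 0.10 in Het with none called, and the nuclear medians -0.01 and 0.01. Then 13 members were called in Hom, 2 higher and 11 lower, and 11 in Het, 7 higher and 4 lower. Over all 12423 genes the corrected fit called 231 higher and 555 lower in Hom (6.33%). In Het it called 112 higher and 381 lower (3.97%). In PFC, where no member was called, the r of single libraries ran from -0.024 to 0.171 in WT and from -0.150 to 0.097 in Het, with overlap. There too the log2 change fell with GC content, over 12865 tested genes (r = -0.17) and over 90 nuclear members (r = -0.14). Whether the GC relation is the source of the shifts was not tested.

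**Figure D3:**
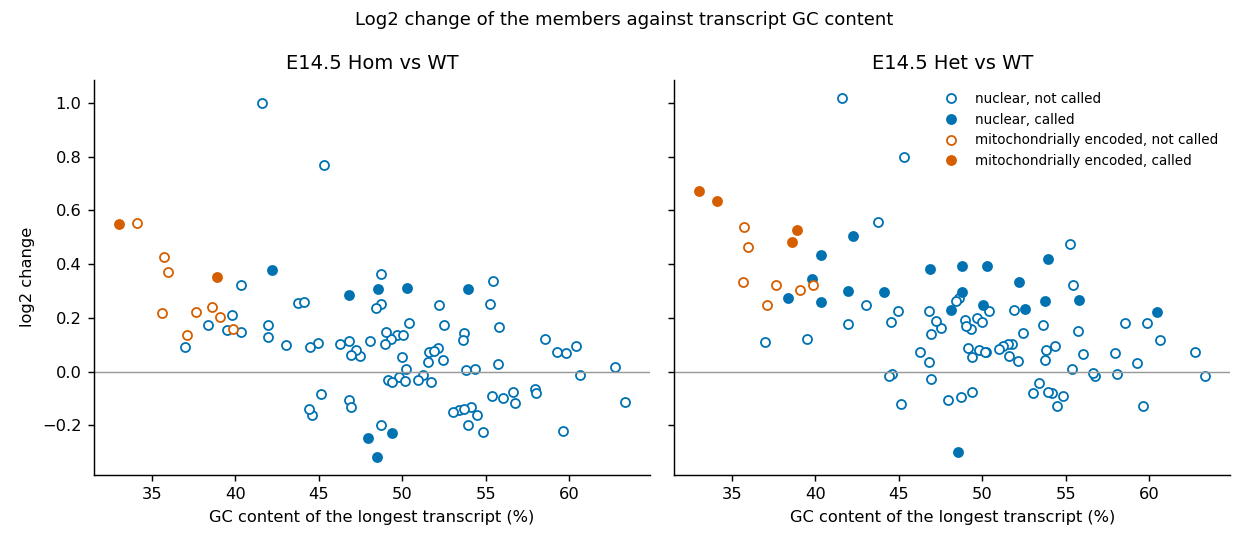
Log2 change of each tested member in Hom (left) and Het (right) against WT embryos, plotted against the GC content of its longest transcript; blue points are nuclear and orange points mitochondrial members, filled where the adjusted p was under 0.05. Mitochondrial members sit at the low-GC end with changes above 0, and over the nuclear members r was -0.35 in each panel.

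The 11 tested mitochondrial mRNAs all had positive changes against WT in both mutant groups, of which 2 passed the test in Hom and 4 in Het. mt-Nd3, a core membrane subunit of complex I (mitochondrial genome, 9459 to 9806), was 84.7 to 118 CPM in WT, with a median of 105, and 125 to 215 CPM in Het, with a median of 164. Its Hom values were 159.5, 161.6, 138.9 and 144.7 CPM in F01, F04, F09 and M02. Neither mutant group overlapped WT. The log2 change was 0.67 (SE 0.12, adjusted p = 0.00535) in Het and 0.55 (SE 0.13, adjusted p = 0.0134) in Hom, and after the GC and length correction 0.14 and 0.19, neither called (adjusted p = 0.268 and 0.137). Without Hom F04 the Hom call was just lost (0.52, adjusted p = 0.0501).

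mt-Co3, a core subunit of cytochrome c oxidase (8607 to 9390), was 36.2 to 50.03 CPM in WT, median 39.9, and 53.5 to 66.2 CPM in Het, median 59.6, with no overlap. Its Hom values of 54.6, 60.1, 44.6 and 51.1 CPM reached into the WT range through F09. The change was 0.53 (SE 0.10, adjusted p = 0.00409) in Het and 0.35 (SE 0.10, adjusted p = 0.0338) in Hom. The corrected values were 0.20 and 0.12, not called. The Hom call was lost without F01 (0.33), F04 (0.28) or M02 (0.37) and without WT F04, F06 or F12.

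mt-Nd6 and mt-Co2 were called in Het and not in Hom, a difference that was not called itself between Hom and Het. mt-Nd6 (13552 to 14070 on the opposite strand, which overlaps mt-Nd5 by 14 bases) was 59.4 to 101 CPM in WT and 96.1 to 173 CPM in Het, overlapping groups with a change of 0.63 (SE 0.17, adjusted p = 0.046). In Hom it was 143, 136, 94.5 and 94.9 CPM, a change of 0.56 (SE 0.19, adjusted p = 0.0816). mt-Co2, which carries the copper site that accepts electrons from cytochrome c, was 12.7 to 21.7 CPM in WT and 16.5 to 26.8 CPM in Het (0.48, SE 0.14, adjusted p = 0.0443), with Hom at 21.2, 21.1, 14.1 and 17.7 CPM. Each of these Het calls was lost in 15 of 27 alternatives, including the loss of Het F02, F07, M01 or M11 or of WT F04, F05, F06, F12 or M03 (adjusted p = 0.141 and 0.117 without Het F07).

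The other mitochondrial mRNAs passed no test, among them the 3 with the highest CPM per kb, mt-Cytb, mt-Nd1 and mt-Co1. mt-Cytb, with 2057 to 3175 CPM in WT, 2221 to 3726 in Het and 3840, 3307, 2290 and 2432 in Hom, changed by 0.30 (SE 0.15) in Het and 0.20 (SE 0.16) in Hom, with adjusted p of 0.259 and 0.492. For mt-Nd1 the changes were 0.32 and 0.22, for mt-Co1 0.32 and 0.16, for mt-Nd4 0.33 and 0.22 and for mt-Nd5 0.25 and 0.14. Between these and the called genes stood mt-Nd2 (0.54 and 0.43) and mt-Atp6 (0.46 and 0.37), at adjusted p of 0.0742 and 0.0551 in Het and 0.162 and 0.137 in Hom. mt-Nd4l and mt-Atp8 were too low to test, at 0.21 to 0.44 and 0.27 to 0.51 CPM in WT.

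Complex I receives electrons from NADH. None of its 7 nuclear core subunits, which bind flavin and iron-sulfur clusters, was called in any of these embryonic comparisons, and 5 of 7 had negative changes in Hom and in Het (medians -0.09 and -0.08), with an unadjusted p under 0.05 for 2 and 1. Of the 29 accessory subunits, which surround the core, 1 was called higher and 1 lower in Hom (6.9%), near the 7.6% of all tested genes. In Het 8 were called, all higher (27.6%, against 5.83% of all tested genes). An unadjusted p under 0.05 was found for 8 of the 29 in Hom and 15 in Het. Over all 12429 tested genes it was found for 2885 and 2772. Ndufs8, an iron-sulfur core subunit, had the lowest p of the core in Hom (-0.23, SE 0.07, adjusted p = 0.06). After the GC and length correction Ndufs8 (-0.24, adjusted p = 0.0203) and Ndufs7 (-0.32, adjusted p = 0.00671) were called lower in Hom, and Ndufs7 (-0.27, adjusted p = 0.0151) in Het. Both were singled out after their values were seen.

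Ndufa5, an accessory subunit of the matrix arm (chromosome 6, 24518666 to 24528013), was 168 to 223 CPM in WT, median 196, and 216 to 284 CPM in Het, median 264, with a small overlap. In Hom it was 236.8, 265.1, 226.7 and 235.5 CPM, above every WT library. The change was 0.39 (SE 0.08, adjusted p = 0.00832) in Het and 0.31 (SE 0.09, adjusted p = 0.0294) in Hom, and it stayed called after the GC correction (0.28 and 0.27, adjusted p = 0.0235 and 0.0271). Among the left-out libraries, F01, F04 and M02 of Hom and F04 and F12 of WT each ended the Hom call, with adjusted p up to 0.113, while no left-out library ended the Het call.

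Ndufa9, an accessory subunit near the quinone site (chromosome 6, 126821721 to 126849136), went the other way in Hom. It was 345 to 381 CPM in WT, median 366, and 319.1, 335.7, 280.7 and 288.0 CPM in Hom, below every WT library, a change of -0.25 (SE 0.07, adjusted p = 0.0327). In Het it ran from 299 to 373 CPM and was not called. The correction left it at -0.30 (adjusted p = 0.00819). Hom F01, F09 and M02 and WT F04, F06, F09, F12 and M03 each ended the call when left out, with adjusted p up to 0.133.

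Other accessory subunits called higher in Het were Ndufb4 (0.33), Ndufc2 (0.39), Ndufc1 (0.30), Ndufa6 (0.26), Ndufb11 (0.23), Ndufb5 (0.23) and Ndufa13 (0.22), with adjusted p from 0.0219 to 0.0482. All 7 calls were lost without Het F02, Het F07 or WT F04, and all but that of Ndufb4 without Het M01. Only Ndufb4 and Ndufa5 of the 8 accessory subunits stayed called after the GC and length correction. Ndufc2 had the highest CPM, not scaled by length, of the nuclear complex I members in E14.5 cortex, at 393 to 522 CPM in WT, 446 to 702 in Het and 551 to 654 in Hom. Its Het range overlapped WT, while its Hom range did not (0.36, SE 0.12, adjusted p = 0.0603). The assembly factor Ndufaf2, a paralog of the subunit Ndufa12, rose in Het (0.30, SE 0.08, adjusted p = 0.0285) and lost its call without Het F02, F07 or M01 or WT F04 or F06, while Ndufa12 itself measured 0.10 (adjusted p = 0.341).

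All 4 subunits of complex II had negative changes in Hom and in Het. In Hom each had an unadjusted p under 0.05, as had 2885 of all 12429 tested genes. Sdha, the flavoprotein that oxidises succinate (chromosome 13, 74322254 to 74350280), was 411 to 486 CPM in WT, median 430, and 367.3, 347.4, 336.8 and 359.8 CPM in Hom, all below every WT library. In Het it ran from 309 to 422 CPM, median 355, and only Het M07 reached the WT range. The change was -0.32 (SE 0.08, adjusted p = 0.0129) in Hom and -0.30 (SE 0.07, adjusted p = 0.0158) in Het. The GC and length correction left it at -0.31 and -0.30 (adjusted p = 0.00901 and 0.0124). In Hom no left-out library ended the call, and in Het the loss of F07 did (-0.24, adjusted p = 0.0939).

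Sdhd, a membrane anchor of complex II (chromosome 9, 50596357 to 50603812), was 398 to 439 CPM in WT and 376.3, 378.3, 329.2 and 334.1 CPM in Hom, with no overlap. Its change in Hom was -0.23 (SE 0.07, adjusted p = 0.0372), and in Het -0.08 (SE 0.06, adjusted p = 0.518) with 341 to 429 CPM. Leaving out F01, F04, F09 or M02 of Hom or F04, F06, F09 or M03 of WT ended the Hom call, with changes from -0.26 to -0.19. Sdhc, the other anchor, was 417 to 486 CPM in WT and 410.9, 414.9, 363.6 and 381.4 CPM in Hom, also without overlap (-0.20, SE 0.07, adjusted p = 0.0693). Sdhb, the iron-sulfur subunit, measured -0.14 (SE 0.07) in Hom with overlapping ranges. Het changes of Sdhc and Sdhb were -0.10 and -0.04.

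Complex III passes electrons from quinol to cytochrome c. Its Rieske iron-sulfur protein Uqcrfs1 measured 28.9 to 34.7 CPM in WT and 38.9, 40.9, 39.8 and 40.4 CPM in Hom, above every WT library (0.31, SE 0.09, adjusted p = 0.0405). The Het range of 32.6 to 43.2 CPM overlapped WT (0.27, adjusted p = 0.0607). Any of the 4 Hom libraries, or WT F04, F06 or F12, ended the Hom call when left out. The GC and length correction ended it too (0.27, adjusted p = 0.0689). Uqcrb, a small subunit at the quinone site, rose in Het from a median of 228 to 305 CPM (0.44, SE 0.10, adjusted p = 0.0126), with 192 to 266 CPM in WT and 245 to 357 in Het. Its corrected change was 0.07, not called, and the call was also lost without Het F07 (0.37, adjusted p = 0.0694). The core proteins Uqcrc1 and Uqcrc2 were not called. After the correction Uqcrc2 (-0.23, adjusted p = 0.0191) and the small subunit Uqcr10 (-0.21, adjusted p = 0.0195) were called lower in Hom. Uqcrh, the hinge protein, had the highest CPM, unscaled by length, of the nuclear members of complex III in E14.5 cortex and measured 631 to 807 CPM in WT and 669 to 894 in Het.

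Complex IV reduces oxygen. Of its 16 nuclear members in embryos, 1 was called in Hom (6.25%, against 7.6% of all tested genes) and 4 in Het (25%, against 5.83%), all higher. Cox6c, a small membrane subunit (chromosome 15, 35925886 to 35938246), was 614 to 800 CPM in WT, median 710, and 773 to 1047 CPM in Het, median 950. In Hom it was 857.1, 969.1, 800.1 and 842.6 CPM, so that F09 lay level with WT F09, the highest WT library. The change was 0.38 (SE 0.08, adjusted p = 0.00748) in Het and 0.29 (SE 0.08, adjusted p = 0.0348) in Hom. After correction Het stayed called (0.35, adjusted p = 0.0228) and Hom did not (0.26, adjusted p = 0.0899). Leaving out F01, F04 or M02 of Hom or F04, F05 or F12 of WT ended the Hom call. Its exons overlap those of Vps13b on the opposite strand by up to 250 bases, and whether the counting used strand is not given. Such an overlap of at least 50 bases was found for 8 of the 27 members called in any comparison and 25 of all 104. Besides Cox6c the called ones were Ndufa9, Ndufa13, Ndufaf2, Ndufb5, Ndufb11, Atp5l and Uqcrb.

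The other complex IV calls in Het were Cox7b (0.30, adjusted p = 0.0151), Cox7c (0.28, adjusted p = 0.0281) and Ndufa4, once counted to complex I (0.26, adjusted p = 0.0375). Their calls were lost without Het F02 or F07, among other libraries for Cox7c and Ndufa4. None kept its call after the correction, where Cox7c turned to -0.08. Isoforms of tissues and states were compared within their families. The widely expressed forms prevailed per kilobase in E14.5 WT cortex: Cox4i1 averaged 1557 CPM per kb against 6.29 for Cox4i2, a form of lung and low oxygen, and Cox7a2 819 against 2.30 for the muscle form Cox7a1. Cox6b1 averaged 1101 against 27.5 for Cox6b2, a form of testis, and Ndufa4 588 against 5.06 for Ndufa4l2, which low oxygen induces. In WT PFC Cox6a1 averaged 2382 CPM per kb against 29.6 for the muscle form Cox6a2. Neither Cox8b nor Cox8c, other forms of Cox8a, is a row of the tables used here. No minor isoform was called in any comparison.

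Cox5a, a matrix-side subunit of complex IV, and Ndufab1, the mitochondrial acyl carrier protein and a complex I subunit, stood apart by their spread, and both were singled out after their values were seen. Cox5a measured 2.63 to 14.1 CPM in WT embryos, 5.79 to 39.8 in Het and 5.91, 11.3, 55.5 and 9.76 in Hom. It was highest in Hom F09 (55.5 CPM), Het M11 (39.8), Het F10 (32.6), Het M01 (17.9) and WT F12 (14.1). The same 5 libraries were highest in Ndufab1, at 68.4, 70.5, 55.2, 52.2 and 37.6 CPM, while all others lay between 9.54 and 28.9 CPM. The log2 changes of 1.00 (SE 0.72) for Cox5a and 0.77 (SE 0.52) for Ndufab1 in Hom were not called (adjusted p = 0.447 and 0.41). In PFC Cox5a measured 322 to 483 CPM and Ndufab1 201 to 295.5 CPM over all libraries.

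**Figure D4:**
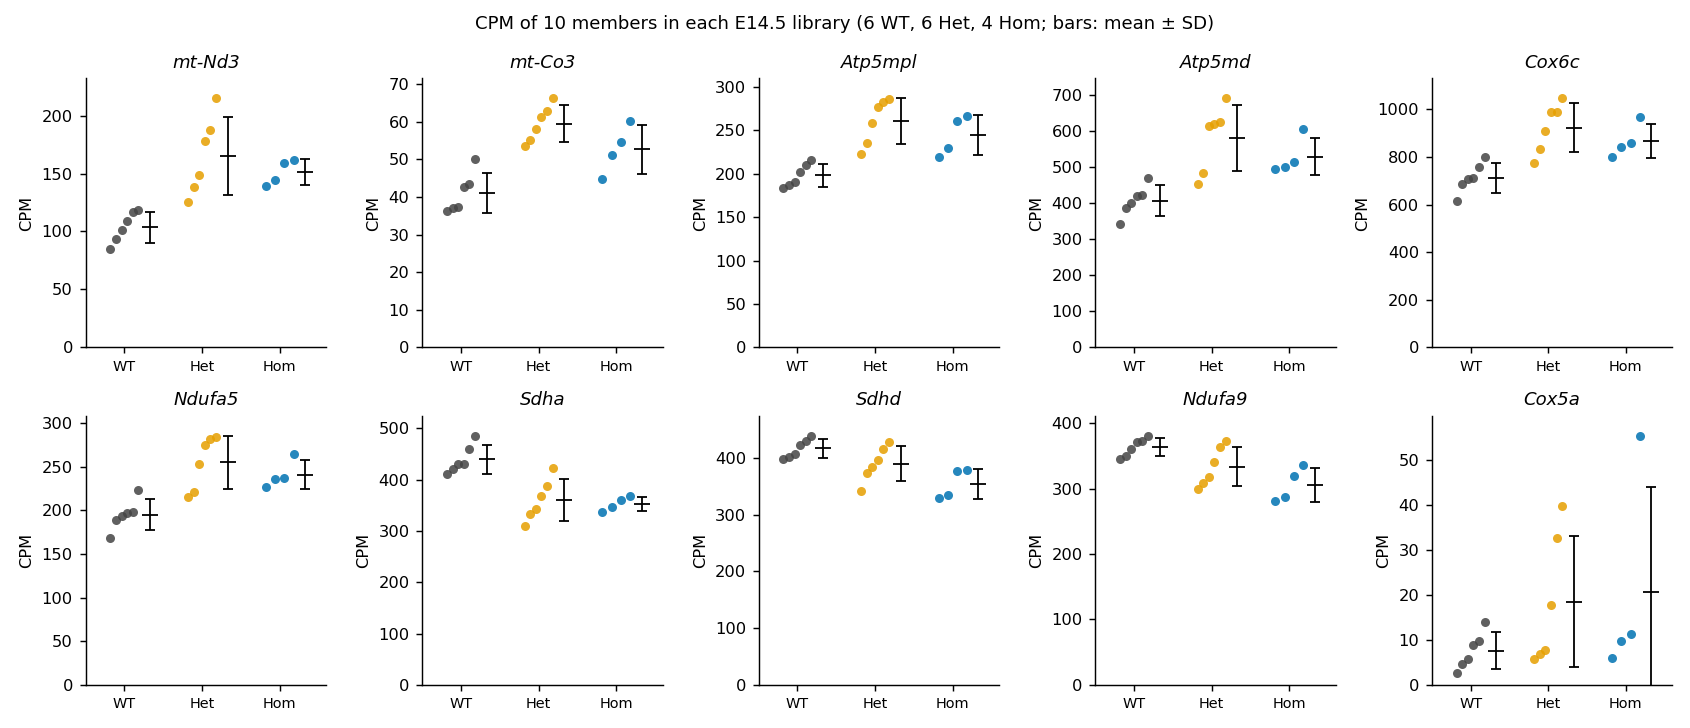
CPM of 10 members in each E14.5 library by genotype, with the mean ± SD beside each group (the lower bar of Cox5a in Hom is cut at 0). mt-Nd3, Atp5mpl and Ndufa5 lie higher and Sdha lower in the 4 Hom libraries than in all 6 WT libraries, whereas Cox5a is spread from 2.63 to 55.5 CPM with overlapping groups.

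Complex V makes ATP. The 5 genes of its catalytic F1 head were not called in embryos (1 with an unadjusted p under 0.05 in Hom, 2 in Het), and Atp5b, the catalytic beta subunit, was 553 to 658 CPM in WT and 598 to 719 in Het. Calls lay among the 12 nuclear genes of the membrane part and stalks, 2 higher in Hom and 5 in Het (16.7 and 41.7%, against 7.6 and 5.83% of all tested genes). Atp5mpl, a small membrane subunit (chromosome 12, 111961375 to 111966977), was 183 to 215 CPM in WT, median 196, and 223 to 286 CPM in Het, median 268. In Hom it was 267.0, 261.0, 229.5 and 219.7 CPM, and neither mutant group overlapped WT. The change was 0.42 (SE 0.07, adjusted p = 0.00361) in Het and 0.31 (SE 0.08, adjusted p = 0.0182) in Hom. The Het call held in all 27 alternatives tried, with changes of 0.27 to 0.50. The Hom call held in 22 of 25 and was lost without F01 (adjusted p = 0.0778) or F04 (adjusted p = 0.0661).

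Atp5md, a small subunit linked to ATP synthase dimers (chromosome 19, 47083464 to 47090647), was 343 to 471 CPM in WT and 454 to 692 CPM in Het, median 618. Its Hom values of 516, 606, 500 and 496 CPM all lay above WT. The change was 0.50 (SE 0.10, adjusted p = 0.00821) in Het, called in all 27 alternatives, and 0.38 (SE 0.11, adjusted p = 0.0342) in Hom. The Hom call was lost without any 1 of the 4 Hom libraries or without WT F04, F05 or F12. It was also lost after the GC and length correction (0.28, adjusted p = 0.118). Atp5l, subunit g of the membrane part, rose in Het from a median of 221 to 286 CPM (0.35, SE 0.07, adjusted p = 0.00837), and Atp5k and Atp5j2, subunits e and f, by 0.27 and 0.25. The last pair lost the call without Het F02, F07 or M01 or WT F04 or M03, and Atp5j2 also without WT F12. The 3 genes of subunit c, which builds the rotor ring, were not called: Atp5g1 measured 0.04, Atp5g2 -0.02 and Atp5g3 0.16 in Het. After the GC and length correction Atp5l (0.21, adjusted p = 0.0972) and Atp5k (0.09, adjusted p = 0.435) were no longer called in Het, and Atp5g2 was called lower in Hom (-0.34, adjusted p = 0.00543) and Het (-0.28, adjusted p = 0.0178).

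**Figure D5:**
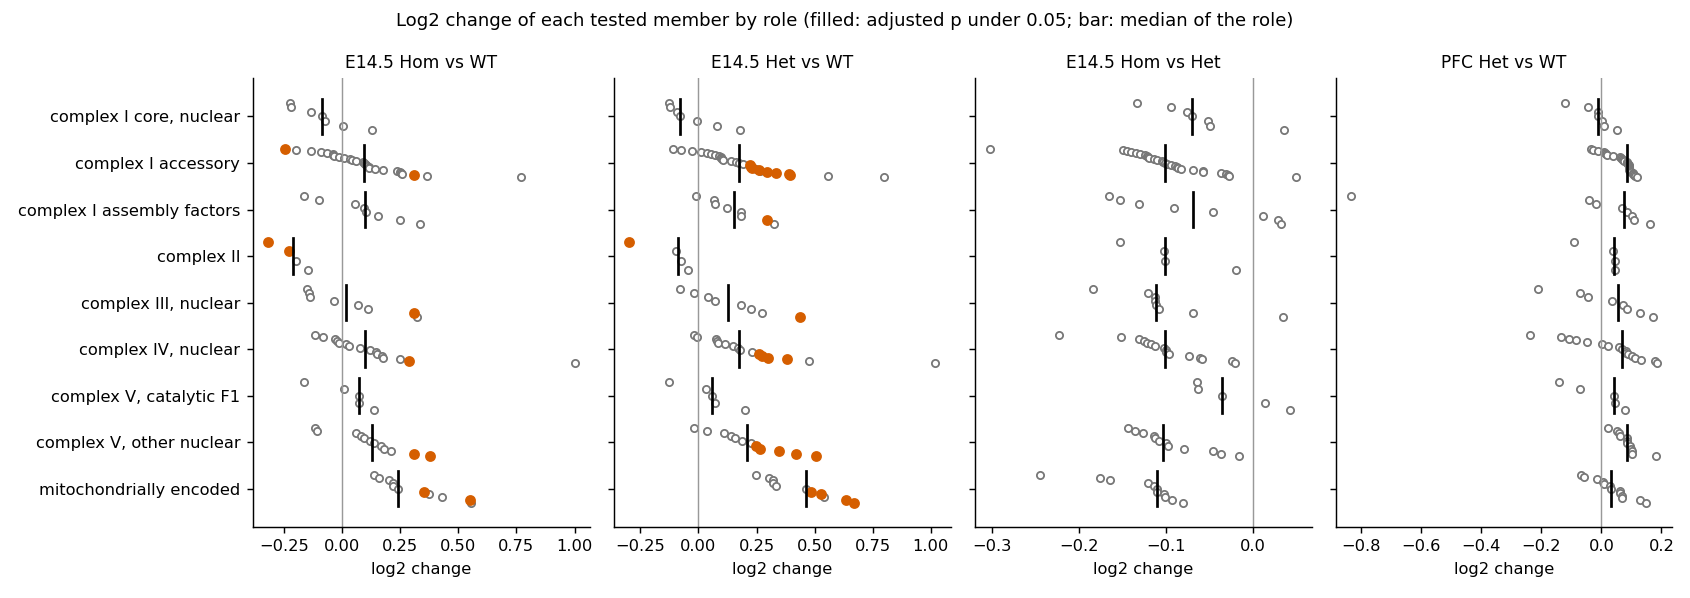
Log2 change of each tested member by role in the 4 comparisons; each point is a gene, filled orange where the adjusted p was under 0.05, and the black bar is the median of the role (scales differ between panels). In Hom and Het against WT the mitochondrial medians are 0.24 and 0.46 and the complex II medians -0.21 and -0.09; no point is filled in the right-hand panels.

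In adult PFC, Het against WT called no member at an adjusted p under 0.05: 0 of 103 by limma, against 0.404% of all 12870 tested genes (0.179% higher, 0.225% lower). An unadjusted p under 0.05 was found for 7 of the 103 members and for 1749 of all 12870 genes, a larger share. The voom alternative also called 0. The median log2 change was 0.07 over 90 nuclear and 0.03 over 13 mitochondrial members, against 0.01 over all tested genes. Single libraries moved both: the nuclear median was 0.02 without WT F04, 0.03 without Het M09, 0.10 without WT F06 and 0.12 without Het M05. The mitochondrial one was -0.05 without Het M09 and -0.01 without WT M07, and between 0.06 and 0.10 without Het F07, Het M05, Het M08 or WT M11. After the GC and length correction it was -0.04. The lowest p belonged to Uqcrfs1, with 295 to 384 CPM in WT, median 342, and 261 to 332 CPM in Het, median 292. Those groups overlapped, although all 6 Het libraries lay below the WT mean (-0.21, SE 0.07, adjusted p = 0.155). Next came Atp5l (0.18), Atp5b (-0.14) and Uqcrb (0.17), with adjusted p from 0.216 to 0.232. Without Het M05, which had the lowest nuclear sum (31945 CPM), Uqcrb alone of the members was called (0.23, SE 0.06, adjusted p = 0.0486). That fit called 0.956% of all tested genes.

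None of the genes called in embryos was called in adult Het. mt-Nd3 was 287 to 415 CPM in WT and 172 to 554 CPM in Het (-0.07, SE 0.22), and mt-Co3 153 to 233 and 166 to 258 CPM (0.03, SE 0.11). Sdha was 497 to 564 CPM in WT and 457 to 557 in Het (-0.09, SE 0.05, adjusted p = 0.451), and Sdhd measured 0.05 (SE 0.05). Atp5mpl changed by 0.06 (SE 0.08), Ndufa5 and Atp5md were likewise not called, and Cox6c measured 0.09 (SE 0.10). Ndufaf6, a complex I assembly factor, singled out after its value was seen, had the lowest log2 change of all members, -0.83 (SE 0.31, adjusted p = 0.254), with 2.15 to 12.3 CPM in Het and 4.79 to 13.99 in WT. Whether the embryonic and adult changes differ was not tested, because the tables were normalised separately. In PFC the nuclear sum was 31945 to 42678 CPM in Het and 35352 to 43450 in WT, with WT F06 highest.

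Genes around the respiratory chain, in lists chosen with earlier results of these data known, gave a context for these values. For these lists and the markers below, the background in Hom was 3.23% of all tested genes higher and 4.37% lower. In Het it was 2.84% higher and 2.98% lower. The TCA cycle list, whose enzymes feed the chain with electrons, held 6 lower and 0 higher calls of 16 in Hom and 4 lower and 0 higher in Het, with medians of -0.17 and -0.09. Citrate synthase Cs fell by 0.35 on the log2 scale in each and Ogdh, of the oxoglutarate dehydrogenase complex, by 0.49 and 0.53. Of 76 mitochondrial ribosome genes, which translate the mitochondrial mRNAs, 2 were higher in Hom and 4 in Het, led by Mrps18c (0.41 and 0.48). None was lower, and these counts lie near the background. Among 16 genes of mitochondrial DNA expression, only Ssbp1, the single-strand DNA-binding protein, was called, higher in Hom (0.26) and Het (0.27).

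Assembly factors outside the naming rule held 1 higher and 3 lower calls of 29 in Hom, Uqcc2 at 0.23 against Cox15 at -0.44 and Bcs1l at -0.32, and 2 higher in Het, Uqcc2 (0.28) and Sdhaf3 (0.34). Of 16 carriers and exchangers, Slc25a5, an ADP/ATP carrier, was lower in Hom (-0.24, adjusted p = 0.0143), and none was called in Het. Of 8 tested regulators, Pprc1, a coactivator related to PGC-1, was lower (-0.44) and Gabpb1, a partner of GABPA, higher (0.73) in Hom, with none called in Het. Cytosolic ribosome genes, nuclear and short like many members, had 16 higher and 0 lower of 77 in Het and 4 in each direction in Hom. In PFC none of these lists held a call.

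Markers of other cells moved with some groups. The 5 choroid plexus genes, among them Ttr, a thyroxine carrier made there at high level, had positive changes in all 5 in Het with a median of 0.49, and none was called. Their summed level was 1405 to 3991 CPM in WT, 3003 to 5211 in Het and 1593 to 2889 in Hom, and none of the 5 was at 0. The 10 erythroid genes, markers of blood, summed to 8345 to 16212 CPM in WT, 10336 to 18516 in Het and 7411 to 12346 in Hom, with a median change of -0.30 in Hom and no call. Of 4 genes of cortical projection neurons 3 were higher in Het and 1 in Hom, and of 5 striatal and ventral genes 2 were higher in Hom. Of the 5 neuron genes, the tubulin Tubb3 was lower in Hom (-0.26) and Het (-0.23), while the other 4 had positive changes that were not called (list medians 0.16 and 0.18). The radial glia gene Sox2 was higher in Hom (0.59) and the meningeal gene Ogn in Het (0.76). Astrocyte, oligodendrocyte and microglia lists held no call in embryos. Nor did the 5 endothelial genes, of which 4 had negative changes in Hom with a median of -0.50, and 4 in Het with a median of -0.25. Their summed level was 31.2 to 74.2 CPM in WT, 36.5 to 78.6 in Het and 27.0 to 55.2 in Hom. In PFC the only marker called was the globin Hbb-bt, lower in Het (-0.54, adjusted p = 0.0441). The part of these cells in the members' changes was not tested.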

How the data were processed

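RNA-seq of E14.5 cortex (16 libraries) and adult PFC (12) was analysed from 2 deposited tables. The build mm10 and the tools HTSeq, STAR, Bowtie2 and Trimmomatic are named per the submitters' processing notes, without versions or roles, and per the labels' protocols libraries came from total RNA with a SMARTer Ultra Low RNA kit. The authors' deposited values are log2 CPM; their table names say that RUVr, which removes unwanted variation, had been applied. With a prior count of 2, all values (100%) gave whole numbers within 0.01, which are scaled and adjusted numbers and not raw counts. The lowest recovered step is worth 0.03395 CPM (E14.5) and 0.0489 CPM (PFC). The labels state no genotype check.

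CPM was recovered and tested as log2(CPM + 0.5) with limma 3.58.1 in R 4.3.3 (genotype and labelled sex, trend and robust settings) over all 12429 and 12870 tested genes, and a Benjamini-Hochberg adjusted p under 0.05 was a call. Almost no variance was left along 2 directions across the E14.5 libraries and 1 across the PFC libraries. This main fit makes no allowance for these removed RUVr directions, so its p-values may be too small. With them as covariates 3 members were called in Hom and 11 in Het, against 4.11 and 2.7% of all tested genes. Fold changes of low genes are understated on this scale. The procedure was tested on simulated data. The alternatives were pseudocount, filter, centring, nuclear totals, voom on recovered numbers, RUVr directions, block, GC content and length, and left-out libraries. Coordinates, lengths and overlaps come from GENCODE vM21 (GRCm38). Replicates carry separate animal identifiers.

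The members, lists and markers were chosen with earlier results of these data known. Named by rule were the mitochondrial genes, the Sdh genes, up to 8 called members per direction by lowest p (4 by lowest p where fewer than 4 were called), isoform families, the most abundant member of each complex and up to 3 genes per pathway or marker list; other names were chosen after their values were seen. A gene that met this rule is not reported here. Embryos with the same replicate label (sex letter and number) did not deviate together (consensus correlation -0.445), and no pairing was used. Only the labels F04 and F09 were shared, each by a Hom and a WT embryo. Same-numbered embryos of different labelled sex were not examined.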

Additional observations from a re-analysis of the deposited data

Results flagged for a closer look

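Of 282 groups of libraries examined, 24 held a library far from its group, and chance flags about 1 in 20 groups. In E14.5 cortex these were Het M01 in Atp5b (719 CPM, others 598 to 642) and Cox8a (322 CPM, others 234 to 266), WT F05 in Cox6b2 (21.4 CPM) and WT F09 in mt-Co2 (21.7 CPM, others 12.6 to 16.0). Hom F09 stood apart in Cox5a (55.5 CPM, others 5.91 to 11.3) and Ndufab1 (68.4 CPM, others 21.3 to 28.9), and WT F12 in Ndufab1 (37.6 CPM).

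In PFC, WT F06 was highest of its group in Atp5g1 (710 CPM), Atp5mpl (316 CPM), Cox5a (478 CPM), Cox6c (1065 CPM), Ndufa5 (393 CPM), Ndufab1 (295.5 CPM), Sdhd (293 CPM) and Uqcrh (619 CPM), and lowest in Ndufaf6 (4.79 CPM, others 11.4 to 13.99). Het M05 was lowest in Atp5l (190.4 CPM), Cox4i1 (1664 CPM), Cox4i2 (6.04 CPM), Ndufa12 (404 CPM), Sdhb (609 CPM), Sdhc (210.4 CPM) and the summed nuclear members (31945 CPM, others 38982 to 42678). WT M11 was highest in Ndufaf7 (92.8 CPM).

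Of 53 members compared between the tissues, Uqcrfs1 was flagged for Het changes of opposite sign. Its log2 change was 0.27 in E14.5 cortex and -0.21 in PFC, neither of them called. Every embryonic Het library lay above its WT mean and every adult one below its own, and this difference was not tested.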

How the results depend on the processing

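For Hom against WT, 10 members were called, and for Het against WT 24. For Hom the count was 22 with nuclear totals, 3 with the removed RUVr directions as covariates and 1 without trend and robust settings. The shares of all tested genes were 8.72, 4.11 and 3.77%. For Het the count was 33 with nuclear totals, 27 with a filter of 5 CPM, 11 with median centring, 11 with the RUVr directions, 4 without trend and robust settings, 11 with the GC content and length correction, 11 with only the 2 groups compared and 41 without the libraries against their labelled sex. In this order the shares of all tested genes were 6.56, 8.46, 5.81, 2.7, 1.81, 3.97, 3.05 and 8.74%. With the replicate block, replicate labels (sex letter and number) as a random effect, the count was 5 for Hom, 26 for Het and 0 for Hom against Het. The shares of all tested genes in Hom and Het were 4.6 and 5.74%. Same-labelled samples share only a label, and this fit was not run for PFC, where only the label F04 was shared. Leaving out each library in turn gave 2 to 10 for Hom, 7 to 33 for Het, 0 to 0 for Hom against Het and 0 to 1 for PFC. The share of all tested genes was 3.93% where Hom had 2 (without Hom F04) and 6.13% where it had 10 (without WT F09). For Het it was 1.05% with 7 members (without Het F07) and 8.42% with 33 (without Het F10). For PFC it was 0.956% with 1 member (without Het M05). The cause of these differences was not tested. Left-out fits also had fewer samples, and their counts fell in some and rose in others, for Het to 33 without Het F10. Among named members, 721 values kept their side of the threshold, 271 lost a call, 1 (Uqcrb in PFC) gained it and 1 changed sign, Cox7c in Het at -0.076 under the GC and length correction. Values are adjusted and scaled, so true depth, and with it the counting error of low genes such as mt-Atp8, is unknown.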
